A study of Caenorhabditis elegans with 4 samples.

Results

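Peaks found for only 1 of UNC-30 and UNC-55, both transcription factors, were examined on the X chromosome of Caenorhabditis elegans in lists from chromatin immunoprecipitation followed by sequencing (ChIP-seq). The peaks were chosen by their positions in both lists: one was taken as alone if no peak of the other factor shared at least 1 bp with it, ends included. This gave 314 UNC-30 peaks out of 709 on X and 271 UNC-55 peaks out of 671, or 585 of the 5484 peaks in both lists over all chromosomes. The remaining 395 UNC-30 and 400 UNC-55 peaks on X overlapped each other and are called shared below. Both libraries came from whole L2 larvae that the labels name as strain GSH100, grown at 22 or 25 °C on NGM plates with OP50 bacteria, and GFP-binding beads pulled down the DNA. There was 1 ChIP library and 1 input library per factor, and the factor of each library is known from its title. The allele, promoter or cell type behind each GFP-tagged factor is not stated in the labels. No input values were analysed here.

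UNC-30 is a homeodomain factor of the Pitx type. It sets the identity of the D-type motor neurons, which release GABA onto body wall muscle, and it turns on the genes for making and loading GABA. UNC-55, a COUP-TF nuclear receptor, works in VD neurons, the D-type class born after hatching, and keeps them from taking on the synapse remodelling of the DD class. Both factors thus meet in VD neurons. These neurons are a small part of a whole larva, so the lists do not tell which cells gave a peak.

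Each list gives the chromosome, start and end of a peak and no height, score or p-value. All starts and ends lie on a 50 bp grid, so a width or gap is known to that step. Positions are counted from 1 and come with no named genome build. The depth is unknown, and a peak may be missing from a list because it fell below the caller's threshold. With 1 library per factor differences between the factors have no replicate check, and p-values are left out. Shares carry exact Clopper-Pearson 95% intervals and medians carry 95% intervals from the order of the values. Both treat peaks as independent and cover counting error only.

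On X, the rule left 44.3% of UNC-30 peaks alone (interval 40.6 to 48.0%). For UNC-55 it left 40.4% alone (interval 36.7 to 44.2%). Over the whole lists it left 44.7% of UNC-30 and 38.4% of the UNC-55 list alone. On the autosomes these values were 44.9% and 37.7%. These shares follow from the rule and are given as a description. The closest cases show how fine the line is. At X 1524601 to 1524700 a UNC-30 peak touched the UNC-55 peak at X 1524501 to 1524600 without sharing a base. The same held for UNC-30 at X 6263301 to 6263400 beside UNC-55 at X 6263151 to 6263300, and for UNC-30 at X 14976751 to 14977100 beside UNC-55 at X 14977101 to 14977300. In these 3 pairs the gap was 0, and 7 UNC-30 and 5 UNC-55 peaks had a gap of at most 100 bp. Just outside the rule, the smallest overlap among shared peaks was 50 bp, 1 grid step, as between UNC-30 at X 843101 to 843450 and UNC-55 at X 843401 to 843550. At the other end, the UNC-30 peak at X 17184451 to 17184550 lay 130300 bp from any UNC-55 peak, and the UNC-55 peak at X 5563901 to 5564250 lay 108550 bp from any UNC-30 peak.

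Along X, both sets were spread over the whole chromosome and were densest in the same stretch. With X cut into 10 equal pieces, piece 3 held 16.6% of the UNC-30 set (interval 12.6 to 21.1%, 52 peaks) and 15.1% of the UNC-55 set (interval 11.1 to 19.96%, 41 peaks). Piece 1, at the left end, held 5.73% and 6.27%. The shared peaks were also densest in piece 3, at 13.7% of UNC-30 and 14.3% of UNC-55 shared peaks. Over 3 equal parts of X the central part held 29.6% of the UNC-30 set (93 peaks) and 37.3% of the UNC-55 set (101 peaks), that is 0.889 and 1.12 times an even spread. Over 5 equal parts the UNC-55 value fell to 0.923. The right part held 34.1% of UNC-30 (interval 28.9 to 39.6%) and 27.7% of UNC-55 (interval 22.4 to 33.4%). The intervals of the sets overlapped in each of the 3 parts.

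**Figure D1:**
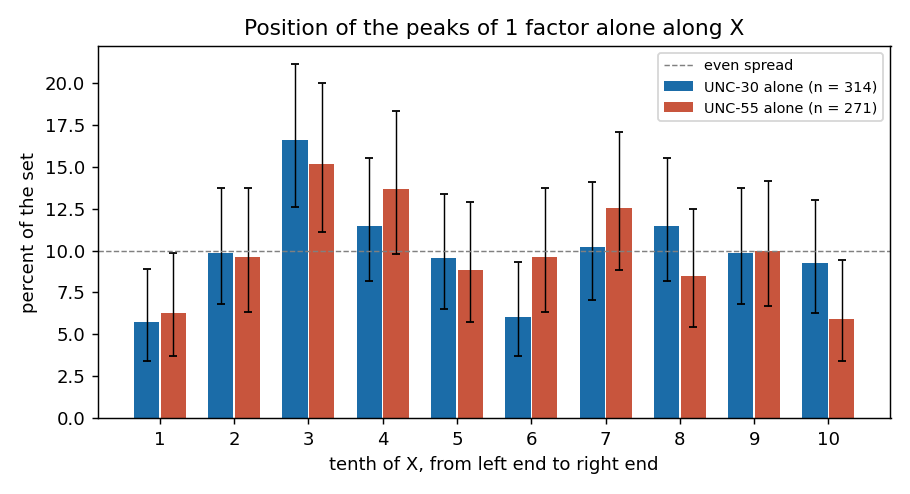
Percent of each set (vertical axis) in each of 10 equal pieces of X (horizontal axis, left end to right end), with blue bars for the 314 UNC-30 peaks alone and red bars for the 271 UNC-55 peaks alone. Lines are exact 95% intervals and the dashed line marks an even spread; piece 3 is the fullest for both, with 52 and 41 peaks.

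Counts of UNC-30 peaks alone per 1 Mb ranged between 9 and 34 over 17 complete windows (median 18). Those of UNC-55 ranged between 4 and 27 (median 16). Both peaked at X 4000001 to 5000000, with 34 and 27. UNC-30 had more in 12 windows, UNC-55 in 4, and 1 was equal. The windows with the widest differences were these. X 13000001 to 14000000 held 24 UNC-30 and 13 UNC-55 peaks, while X 11000001 to 12000000 held 15 UNC-30 and 24 UNC-55 peaks. Their shared peaks were nearly as many, with 25 and 27 of UNC-30. These are the extremes of the windows, and the counts were not scaled for the larger UNC-30 set.

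Peaks alone were narrow. The UNC-30 set had a median width of 250 bp (interval 200 to 250 bp, quartiles 150 and 300 bp, range 100 to 850 bp), against 400 bp (interval 350 to 400 bp) for the shared UNC-30 peaks on X. The UNC-55 set had a median of 200 bp (quartiles 150 and 275 bp), against 300 bp (interval 250 to 300 bp) for its shared peaks. Of the UNC-30 set, 7.01% were 450 bp or wider (interval 4.44 to 10.4%), against 43.0% of its shared peaks (interval 38.1 to 48.1%). For UNC-55 these shares were 4.80% (interval 2.58 to 8.06%) and 16.3% (interval 12.8 to 20.2%). A wide peak has more room to overlap another, so the rule itself favours narrow peaks. Read the other way, 72.1% of UNC-30 peaks of 100 to 150 bp on X were alone (98 of 136) and 11.5% of those of 450 bp or more (22 of 192). For UNC-55 the shares were 57.9% (106 of 183) and 16.7% (13 of 78).

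**Figure D2:**
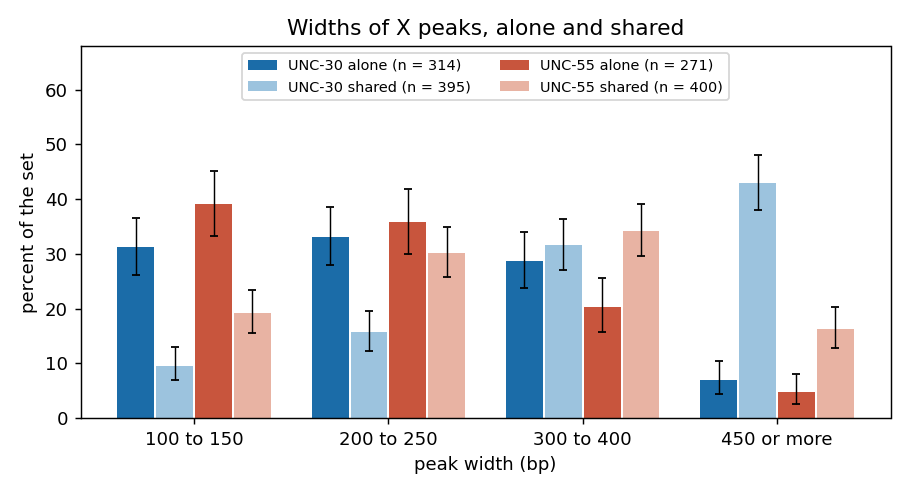
Percent of each set (vertical axis) in 4 classes of peak width in bp (horizontal axis) for UNC-30 alone, UNC-30 shared, UNC-55 alone and UNC-55 shared on X, with exact 95% intervals as lines. The class of 450 bp or more holds 43.0% of shared UNC-30 peaks and 7.01% of UNC-30 peaks alone.

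On the autosomes the UNC-30 peaks alone had a median of 200 bp (interval 200 to 250 bp) and a mean of 248 bp, against a mean of 252 bp on X. For UNC-55 the median was 200 bp in both places, and the mean was 203 bp on the autosomes against 234 bp on X, where it includes a peak of 4650 bp. UNC-55 peaks of 450 bp or more were 13 of 271 on X and 13 of 731 on the autosomes, or 4.80% and 1.78% (interval 0.9502 to 3.02%), and these intervals overlap.

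The widest UNC-55 peak alone ran from X 5907751 to 5912400, a length of 4650 bp that exceeds any other member of either set, and no read values were at hand to examine it. Its nearest gene was nlp-49, a neuropeptide-like gene, and it lay 39650 bp from the UNC-30 list. The whole UNC-55 set covered 63.5 kb and the UNC-30 set 79.2 kb. Next in width was the one at X 1018351 to 1019000, with 650 bp. The widest UNC-30 peak alone was at X 4222451 to 4223300 (850 bp), followed by 4 of 700 bp at X 8396901 to 8397600, X 9813901 to 9814600, X 12586751 to 12587450 and X 15131601 to 15132300. Of these 4, the nearest coding genes were wrk-1, dpy-22, T24D5.2 and unc-7 in that order, and dpy-22, which encodes a Mediator subunit, and unc-7 held their peak.

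The UNC-30 set lay nearer to the common sites than the UNC-55 set did. The median gap from a peak edge to the nearest shared peak of the own list was 8425 bp in the UNC-30 set (interval 6400 to 12200 bp). In the UNC-55 set it was 12900 bp (interval 11000 to 17050 bp), with about as many shared peaks on X in each list (395 and 400). A shared peak lay less than 2000 bp away for 25.2% of the UNC-30 set (interval 20.5 to 30.3%, 79 peaks) and 14.4% of the UNC-55 set (interval 10.4 to 19.1%, 39 peaks). At less than 500 bp the counts were 16 UNC-30 peaks (5.10%) and 4 UNC-55 peaks (1.48%). The intervals at 2000 bp did not overlap, those of the medians did, and the difference has no replicate check. Whether the wider peaks of the UNC-30 list play a part was not tested.

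Measured to any peak of the opposite list, the UNC-30 set had a median gap of 4475 bp (interval 3700 to 5700 bp). The UNC-55 set had one of 7500 bp (interval 5050 to 9350 bp). With only peaks of 300 bp or more kept in both lists the order turned, to 13025 bp for UNC-30 against 9900 bp in UNC-55. It was under 2000 bp for 108 peaks of the UNC-30 set (34.4%, interval 29.2 to 39.9%) and 73 of the other set (26.9%, interval 21.8 to 32.6%). On the autosomes the median for UNC-30 alone was 8175 bp (interval 6750 to 9500 bp), longer than on X. For UNC-55 it was 8800 bp (interval 7300 to 10500 bp), which overlaps the interval on X. The UNC-55 list held 671 peaks on X and 1938 on the 5 autosomes, and the UNC-30 list 709 and 2166. The gaps were not scaled for peak density, and the part of density in the longer autosomal gap was not tested. The nearest UNC-55 peak was a shared one for 65.6% of the UNC-30 set (interval 60.1 to 70.9%), and shared peaks are 59.6% of the UNC-55 list on X. For the UNC-55 set the nearest UNC-30 peak was shared in 51.3% (interval 45.2 to 57.4%), and shared peaks are 55.7% of the UNC-30 list on X.

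**Figure D3:**
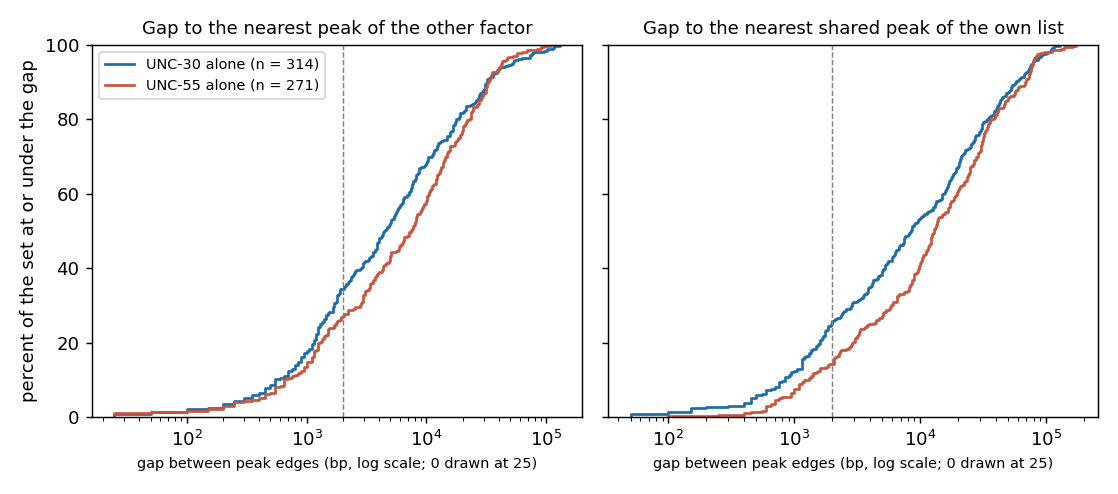
Cumulative percent of each set (vertical axis) against the gap in bp on a log scale (horizontal axis), to the nearest peak of the other factor on the left and to the nearest shared peak of the own list on the right; blue is UNC-30 alone, red is UNC-55 alone, and the dashed line marks 2000 bp. In the right panel 25.2% of the UNC-30 set and 14.4% of the UNC-55 set lie to the left of that line.

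By the rule, peaks of the sets cannot overlap each other, so a lack of contact between them is no result. The nearest UNC-55 peak alone was a median of 18400 bp from a UNC-30 peak alone, and 42 UNC-30 and 40 UNC-55 peaks (13.4% and 14.8%) had one of the other set less than 2000 bp away. When all X peaks less than 2000 bp apart were joined, 715 regions resulted. Of these, 182 held UNC-30 alone, 175 held UNC-55 alone, 238 held shared sites only, 53 held shared sites with UNC-30 peaks alone, 27 held shared sites with UNC-55 peaks alone, 26 held both kinds of peaks alone without a shared site, and 14 held all 3 kinds. The greater number of each set stood with no peak of either list within 2000 bp, with 169 UNC-30 peaks (53.8%, interval 48.1 to 59.4%) and 162 in the UNC-55 set (59.8%, interval 53.7 to 65.7%).

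The shares with a neighbour of the same set overlapped in their intervals at 2000 bp and not at 500 bp. Another peak of the same set lay less than 2000 bp away for 18.8% of UNC-30 (interval 14.6 to 23.6%) and 16.2% of UNC-55 (interval 12.1 to 21.2%). At less than 500 bp the shares were 6.37% (interval 3.93 to 9.67%) and 1.48% (interval 0.404 to 3.74%). These were 20 UNC-30 and 4 UNC-55 peaks. On the autosomes 17.4% of UNC-30 peaks alone (interval 15.1 to 19.9%) and, for UNC-55, 11.6% (interval 9.39 to 14.2%) had a neighbour of their set under 2000 bp. These shares were not scaled for peak density.

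Groups of 3 or more peaks of 1 set were few, with 3 groups for UNC-30 and 5 for UNC-55. The largest was at X 14775051 to 14778350, where 4 UNC-55 peaks of 100, 200, 250 and 150 bp followed each other, at 19200 bp or more from the UNC-30 list. Groups of 3 UNC-55 peaks stood at X 4236151 to 4239300, X 4574101 to 4576500, X 7232401 to 7235100 and X 11744451 to 11747250. The UNC-30 groups were at X 2456051 to 2459850, with 3 peaks of 350 bp each, at X 4625801 to 4629200, and at X 10767151 to 10771350, where 2 shared UNC-30 peaks lay between the members.

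To see which genes lay near the peaks, the lists were set against a RefSeq gene table of assembly WBcel235, which has no strand. Since the build of the lists is not named, their fit was first read from the tRNA genes on X, which number 276 of 634 in the table. Within 1000 bp of a tRNA gene midpoint, 18 UNC-30 peaks alone were found, and 17 of them lay under 300 bp. Of these 17, 16 lay on the side of lower coordinates. The offsets of their centres ran from -238.0 to 63.0 bp with a median of -141.5 bp. The limit of 300 bp keeps these offsets short by choice, so all 28 UNC-30 peaks within 1000 bp, alone or shared, were also placed. Of them 19 lay less than 300 bp to the lower side, 1 less than 300 bp to the higher side, and 8 farther off (2 lower, 6 higher, from -609.5 to 970.0 bp). Those less than 300 bp to the lower side were 7 of 10 in the left, 4 of 7 in the central and 8 of 11 in the right part of X. These counts describe where the peaks fell on the table and do not establish its build. A gene was named for a peak only where it held or lay nearest to the peak centre and stayed so with the peak moved by 300 bp to either side. Gene names below would be wrong where the builds differ by more than that.

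The plan counted tRNA genes by gene name only. By name, UNC-30 peaks alone named 2 of the 276 on X and UNC-55 peaks alone named 1. By a distance of 300 bp, which was not in the plan, the sets differed. The 17 UNC-30 peaks under 300 bp from a tRNA gene were 5.41% of the UNC-30 set (interval 3.19 to 8.53%), against 3 of 395 shared UNC-30 peaks (0.760%, interval 0.157 to 2.20%). In the UNC-55 set it was 1 of 271 peaks (0.369%, interval 0.00934 to 2.04%). Over the whole lists, 1.70% of all UNC-30 peaks lay that close, and 0.383% in the UNC-55 list. tRNA genes are short and are read by RNA polymerase III. All 17 were at least 2000 bp from the UNC-55 list, at a median gap of 15850 bp, while their median width was 200 bp (range 100 to 500 bp). On the autosomes 2.88% of UNC-30 peaks alone lay near a tRNA gene (28 of 972, interval 1.92 to 4.14%). For UNC-55 peaks alone it was 0.547% there (4 of 731, interval 0.149 to 1.395%). X by itself holds 276 of the 634 tRNA genes in the table, so peaks on X have more of them to lie near. The part of this in the lower values for the autosomes and whole lists was not tested. No input or control ChIP values were at hand, so the part of unspecific pull-down at these genes was not tested.

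**Figure D4:**
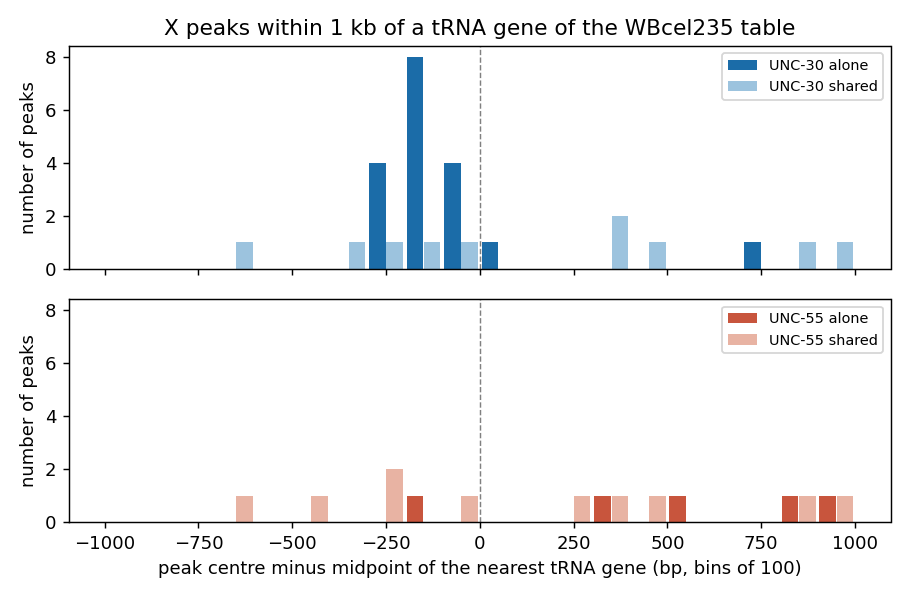
Number of X peaks (vertical axis) by the distance in bp of the peak centre from the midpoint of the nearest tRNA gene (horizontal axis, bins of 100 bp), with UNC-30 above and UNC-55 below and shared peaks in the pale colour. UNC-30 peaks alone gather just below 0, with 16 of 17 on the lower side, while UNC-55 has 1 peak alone under 300 bp.

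The peak centre fell inside a gene of any kind for 40.1% of the UNC-30 set (interval 34.7 to 45.8%) and 46.5% of the UNC-55 set (interval 40.4 to 52.6%). Over all X peaks these shares were 41.6% and 45.2%. With protein-coding genes only they were 33.8% and 35.4%. The UNC-55 value fell to 38.0% when its peaks were moved by 300 bp to higher coordinates. A gene of any kind could be named for 254 UNC-30 and 221 UNC-55 peaks (80.9% and 81.5%), and a protein-coding gene for 284 and 248 (90.4% and 91.5%). The coding genes that held peaks were long, with median lengths of 8602 bp (UNC-30 set) and 7958 bp (UNC-55 set), against 2507.5 bp for all coding genes of X. A longer gene has more room for a peak. Of the 2730 protein-coding genes on X, 8.39% were the nearest coding gene of at least 1 UNC-30 peak alone (229 genes) and 7.40% of at least 1 UNC-55 peak alone (202 genes). With genes of all kinds competing for the nearest place, the shares were 5.53% and 4.76%. Both sets met at 59 coding genes, which is 25.8% of the UNC-30 and 29.2% of the UNC-55 genes.

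Listed genes of motor neuron identity and differentiation outside the D-type and GABA list numbered 8 on X. UNC-55 peaks alone named 2 of them with genes of all kinds and 3 with coding genes only, against 4.76% and 7.40% of all coding genes. UNC-30 peaks, alone or shared, named 0 of the 8, and with 5.53% or 8.39% of all coding genes named by UNC-30 peaks alone, 0 among so few genes sets nothing apart. The group of 4 UNC-55 peaks at X 14775051 to 14778350 lay inside unc-3, which encodes the EBF-type factor that sets the identity of cholinergic motor neurons. In lim-4, a LIM homeobox gene of neuron identity, UNC-55 peaks of 200 and 150 bp stood at X 3871551 to 3871750 and X 3873301 to 3873450, at 13650 bp or more from the UNC-30 list. A UNC-55 peak of 450 bp at X 6701951 to 6702400 had acr-2, which encodes an acetylcholine receptor subunit of cholinergic motor neurons, as its nearest coding gene. The 8 genes have a median length of 5254.5 bp, more than the 2507.5 bp of all coding genes of X, and the part of length was not tested. They are few for the UNC-55 counts too, and the gene lists were chosen with earlier results of these data known.

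D-type motor neuron and GABA genes had peaks of both sets. Of the 12 listed genes on X, 4 were named by UNC-30 peaks alone and 3 by UNC-55 peaks alone, and with coding genes only 5 and 4. Of all coding genes the shares were 5.53% and 4.76%, and 8.39% and 7.40% with coding genes only. Shared UNC-30 peaks named 3 of the 12, and 6 with coding genes only, against 6.56% and 9.89% of all coding genes. The listed genes have a median length of 5966 bp, against 2507.5 bp for all coding genes of X, and the part of length was not tested. The gene with most members was lin-14, whose nuclear protein times larval events that include the rewiring of DD neurons. With coding genes only it had 5 UNC-30 peaks alone, 3 UNC-55 peaks alone and 5 shared sites, and with all genes 3, 3 and 4. Inside lin-14 the peaks of the sets lay among each other. UNC-30 peaks stood at X 11469601 to 11469850, X 11479951 to 11480150 and X 11482601 to 11482900, and UNC-55 peaks at X 11475651 to 11475800, X 11478751 to 11478850 and X 11482251 to 11482350. The last of each lay 250 bp apart.

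Among the other genes of the D-type list, UNC-30 peaks alone had hbl-1, a zinc finger gene that also acts in DD remodelling, as their nearest coding gene at X 5818351 to 5818550 and X 5821851 to 5822400. They had dve-1, a homeobox gene, at X 428351 to 428550, X 433801 to 434100 and X 434401 to 434800. Shared sites were also named for hbl-1 and dve-1 (2 each). With genes of all kinds competing for the nearest place, hbl-1 had no UNC-30 peak, alone or shared, and dve-1 had 1 of each. Inside ser-2, which encodes a tyramine receptor, UNC-30 peaks stood at X 15291851 to 15292000 and X 15294751 to 15295100, at least 13700 bp from any UNC-55 peak. A UNC-55 peak stood inside nlg-1, the neuroligin gene, at X 13630501 to 13630700. Another, at X 11131551 to 11131850, had alr-1, an aristaless-type homeobox gene, as its nearest coding gene. The sodium channel subunit gene del-1 had 1 peak of each set, 5800 bp apart.

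Of 22 axon guidance and adhesion genes on X, 6 were named by UNC-30 peaks alone and 3 by UNC-55 peaks alone, and with coding genes only 8 and 3. The shares of all coding genes were again 5.53% and 4.76%, or 8.39% and 7.40%, and the listed genes have a median length of 6021 bp against 2507.5 bp. By shared UNC-30 peaks 4 of the 22 were named, and 6 with coding genes only, against 6.56% and 9.89% of all coding genes. Inside ncam-1, the homologue of the vertebrate neural cell adhesion molecule, 3 UNC-30 peaks at X 692701 to 692950, X 693201 to 693500 and X 698151 to 698300 stood with no UNC-55 peak nearer than 30350 bp. Single UNC-30 peaks lay inside dgn-1, a dystroglycan gene, igcm-3, an immunoglobulin-type adhesion gene, and let-2, a type IV collagen gene. The Robo receptor gene sax-3 had 1 UNC-30 and 2 UNC-55 peaks alone beside 3 shared sites, by the nearest coding gene. The glypican gene lon-2 held a UNC-30 peak of 500 bp at X 4739301 to 4739800 and a UNC-55 peak of 550 bp at X 4742201 to 4742750. Each lay 800 bp from the opposite list, and 2 shared sites were also named for lon-2.

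Ion channel and synaptic genes had peaks of both sets. Of 20 such genes on X, 5 were named by UNC-30 peaks alone and 6 by UNC-55 peaks alone, and with coding genes only 5 and 9. All coding genes gave 5.53% and 4.76%, or 8.39% and 7.40%. Shared UNC-30 peaks named 12 of the 20 either way, against 6.56% of all coding genes, or 9.89% with coding genes only. The median length of the 20 genes is 7943 bp, against 2507.5 bp for all coding genes of X. For dop-1, a D1-type dopamine receptor gene, 3 UNC-55 peaks had it as their nearest coding gene, and no UNC-30 peak did. They stood at X 4420951 to 4421250, X 4423501 to 4423650 and X 4424251 to 4424500. With genes of all kinds competing for the nearest place, none of them named dop-1. By the nearest coding gene, dop-3, a D2-type dopamine receptor gene, had 2 UNC-55 peaks alone and 2 shared sites. By the same measure unc-1, which encodes a stomatin-type protein, had 2 UNC-55 peaks alone and 1 shared site. In unc-58, a potassium channel gene, a UNC-30 peak of 400 bp at X 10126151 to 10126550 and a UNC-55 peak of 350 bp at X 10125351 to 10125700 were 450 bp apart, with a further UNC-55 peak at X 10107801 to 10108050. The innexin gene unc-7 held a UNC-30 peak of 700 bp at X 15131601 to 15132300, one of the widest of its set, and a UNC-55 peak of 150 bp at X 15139451 to 15139600. The serotonin receptor gene ser-7 held 2 UNC-30 peaks and 1 UNC-55 peak, with 300 bp between the closest. A shared site was also named for each of unc-58, unc-7 and ser-7 (1 each).

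Listed genes above included, 13 coding genes were nearest to 3 or more UNC-30 peaks alone and 8 to 3 or more UNC-55 peaks alone. For UNC-30 these were also D1079.1 (4 peaks), fox-1, an RNA-binding factor gene that takes part in counting X chromosomes, fkh-9, a forkhead gene, wrk-1, an immunoglobulin-type gene of axon guidance, sma-9, the Schnurri homologue of BMP-type signalling, toca-1, C46C11.3, R01E6.2, lron-3 and pcdr-1, each with 3. Of these genes, toca-1 also had 2 UNC-55 peaks alone, and lron-3 and pcdr-1 had 1 each. Shared sites numbered 3 for sma-9, 2 for D1079.1 and 1 each for fkh-9 and wrk-1. The group of 3 at X 2456051 to 2459850 belonged to fox-1 and that at X 10767151 to 10771350 to sma-9, both by the nearest coding gene. For UNC-55 they were F46H5.3, which held the group at X 7232401 to 7235100, rab-37, a Rab GTPase gene, lin-2, the CASK scaffold gene, zig-12, an immunoglobulin-type gene, and C40H5.2, each with 3. Among them C40H5.2 also had 2 UNC-30 peaks alone, lin-2 had 2 shared sites and rab-37 had 1. The counts of 13 and 8 come from 229 and 202 coding genes named by the sets. With genes of all kinds competing for the nearest place, 4 genes had 3 or more UNC-30 peaks alone and 3 genes had 3 or more UNC-55 peaks alone. By that measure fox-1 and pcdr-1 had no UNC-30 peak alone, dop-1 had no UNC-55 peak alone, and rab-37 and zig-12 had 1 each.

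**Figure D5:**
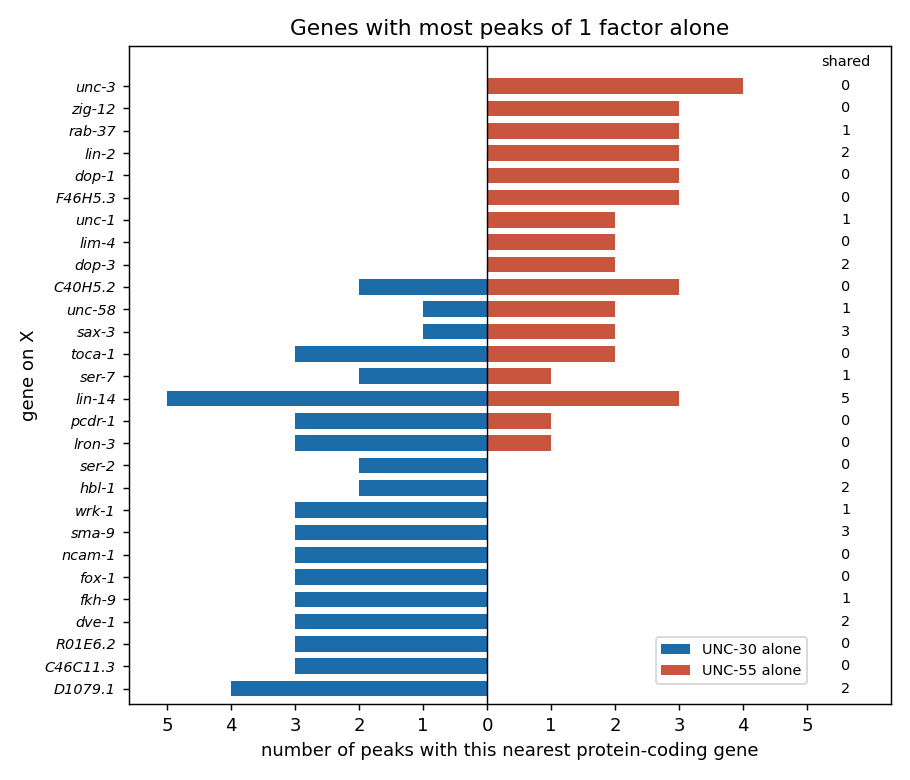
Number of peaks with a given nearest protein-coding gene (horizontal axis) for genes on X with 3 or more peaks of 1 set, or 2 or more for genes of the fixed lists; blue bars to the left are UNC-30 alone, red bars to the right UNC-55 alone, and the column at the right gives shared UNC-30 peaks. The gene unc-3 has 4 UNC-55 peaks and no other, while lin-14 has 5, 3 and 5. With genes of all kinds competing for the nearest place, 4 genes have 3 or more UNC-30 peaks alone and 3 genes have 3 or more UNC-55 peaks alone.

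Families were read from gene symbols, with genes of all kinds competing for the nearest place. By that measure UNC-30 peaks alone named 5.53% of the coding genes and 3.90% of all genes on X, and UNC-55 peaks alone 4.76% and 3.39%. Of the 24 nuclear hormone receptor genes (nhr) on X, 3 were named by UNC-30 peaks alone and 2 by UNC-55 peaks alone, with nhr-1 and nhr-27 in both. Of 18 ceh homeobox genes, 1 was named by UNC-30, ceh-18, and 0 by UNC-55. Of 13 flp neuropeptide genes none was named by either set, and with coding genes only UNC-55 named 1, flp-32. Of 22 nlp neuropeptide genes, UNC-30 named 1 and UNC-55 named 2. The gene nlp-14 had 1 UNC-30 and 2 UNC-55 peaks alone and no shared site. Of 18 lgc ligand-gated channel genes the counts were 1 and 2, of 10 twk potassium channel genes 0 and 0, of 6 acr genes 1 and 0, of 28 col collagen genes 2 and 1, and of 71 mir microRNA genes 1 and 1. Median gene lengths were 93 bp for mir, 724 bp for nlp, 969 bp for flp, 1066 bp for col and 2644.5 bp for ceh. Those of lgc, acr, nhr and twk genes were 3207, 3772, 4190.5 and 4378 bp. A short gene is harder to name, since the name had to hold with the peak moved by 300 bp. Counts of families of unlike length therefore cannot be compared, and the part of length was not tested. Of the 16 unc genes on X (median length 5649 bp), 4 were named by each set, and unc-7 and unc-58 by both. Shared UNC-30 peaks named 8 of the unc genes and 5 of the nhr genes. They named 1 each of the ceh, lgc, acr and mir genes and 0 of the flp, nlp, twk and col genes. Over X they named 6.56% of the coding genes and 4.40% of all genes.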

How the data were processed

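The authors deposited 1 peak list per ChIP library with chromosome, start and end, per the file headers, and no score. For the aligner, peak caller, use of input and build, nothing is given in the sources used here. Every start was a multiple of 50 and every end lay on the same grid (0 exceptions), so positions were read as counting from 0 with the end included, and 1 was added. X was taken to end at the last peak, 17628550. Gaps were measured between peak edges. Gene names came from a RefSeq table (WBcel235). Of 176 listed symbols, 174 were found and 62 were on X. The members and lists were chosen with earlier results of these data known. The regions named were the 10 widest peaks per set, of which the widest few are given, groups of at least 3, the closest and the farthest; the genes named had 3 or more peaks of 1 set or belonged to a list. No test was run, since there is 1 library per factor. Alternatives were other overlap rules, minimum widths, neighbour distances, a moved gene table and coding genes only. Overlap, gap, joining and gene naming were tested on simulated data with known answers. No genome sequence was used here. Tables were handled with pandas 2.3.3 and numpy 2.4.6 in Python 3.11.15, intervals came from scipy 1.17.1 and plots from matplotlib 3.10.9.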

Additional observations from a re-analysis of the deposited data

How the results depend on the processing

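No paired analysis was possible because there is 1 library per factor, and for the same reason no replicate could be left out. Of 82 values under other settings, 59 stayed within the 95% interval of the reported value and 23 did not. Where a peak counted as alone only with no peak of the other list less than 2000 bp away, the share alone fell to 29.06% for UNC-30 and 29.51% for UNC-55, the median gap to the other list rose to 9275 and 12050 bp by construction, and UNC-30 grouping was 14.08%. With both lists limited to peaks of 300 bp or more, the share alone was 56.51% for UNC-30 and 34.07% for UNC-55, the median widths were 400 and 350 bp, and the gaps 13025 and 9900 bp, so their order turned. With at least 200 bp the widths were 300 and 250 bp and the gaps 6400 and 9950 bp. Grouping at less than 500 bp was 6.369% and 1.476%, and at less than 5000 bp 33.44% and 31.73%. Over 5 equal parts of X the central density of UNC-55 was 0.9225 times an even spread in place of 1.118, which turns its direction. The share of peaks inside a gene was 33.76% and 35.42% with protein-coding genes only. With genes of any kind and peaks moved by 300 bp to higher coordinates it was 42.36% for UNC-30 and 38.01% for UNC-55, so their order turned. The tRNA distances of 200 and 500 bp were chosen after seeing the data and left the shares within their intervals. The plan held no tRNA distance of 300 bp and listed tRNA genes only as a family to be counted by gene name. By that measure UNC-30 peaks alone named 2 of the 276 tRNA genes on X and UNC-55 peaks alone named 1. Depth is unknown, so a peak of the other factor below its threshold cannot be told from none.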
